A study of Homo sapiens with 16 samples.

Results

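The RNA bound by poly(A)-binding protein (PABP) was sequenced from U343 cells transfected with a miR-137 mimic or with a control mimic. These were 4 of the 16 samples of the series, chosen by their labels as the RIPSeq samples of U343, and every gene of their count tables was considered. The study transfected U343 and U251, both established human glioblastoma cell lines, to ask which mRNAs change when miR-137 is restored, and sequenced total RNA (RNASeq) and PABP-bound RNA (RIPSeq, RNA immunoprecipitation followed by sequencing) from each. The U343 RIPSeq control group held 2 libraries from cells given the control mimic, and the U343 RIPSeq miR137 group held 2 libraries from cells given the miR-137 mimic. Both groups received the mimic at 25 nM by reverse transfection with Lipofectamine RNAiMax and were harvested after 48 h, so the transfection itself was common to both. PABP was precipitated from the cell extract with a mix of 2 antibody preparations, anti-PABP I and anti-iPABP, and the recovered RNA was depleted of ribosomal RNA before library construction. The groups compared were a transient transfection of 1 cell line, and no source used here says that replicates came from separate cultures, so the p-values measure the spread between these libraries, which may be technical.

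MicroRNAs guide Argonaute proteins to mRNAs that carry a match to their seed, and the recruited complex displaces PABP from the poly(A) tail and shortens that tail, which lowers translation and destabilises the mRNA. miR-137 is a microRNA of the nervous system that rises as neurons differentiate and is reduced in glioblastoma. An mRNA can therefore appear lower in a PABP precipitate through loss of PABP or through loss of the mRNA, and transfected RNA can also set off the antiviral response, in which secreted interferons act through JAK kinases and STAT factors to switch on antiviral genes.

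The mature microRNA is shown because the experiment rests on it, as given by RefSeq for GRCh38.p14 at chr1:98046091-98046113 on the minus strand. Capitals mark its seed, bases 2 to 8 from the 5′ end, whose reverse complement in an mRNA is AGCAAUA. Seed matches in the mRNAs were not analysed here.
hsa-miR-137-3p: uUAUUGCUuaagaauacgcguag

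The 4 libraries were of similar depth, from 37736206 to 45055184 reads counted on genes, with 18555 to 18969 genes holding a read and 7.44% to 8.74% of the reads on the 10 most read genes. Levels are given as reads or as CPM (reads per 1000000 reads of the library, with the library size adjusted by edgeR's trimmed mean of M values). Fold changes below are log2 ratios of miR-137 over control with n = 2 libraries per group. Each has an approximate standard error (SE), worked back from the F statistic of edgeR. For large changes of genes with few control reads this SE can be smaller than the counting error alone. A gene is called lower or higher where the edgeR adjusted p is under 0.05. GFAP, the intermediate filament of astrocytes, and VIM, an intermediate filament of mesenchymal and glial cells, were among the most read genes with 226370 and 301017 and 346561 and 276528 reads in the control libraries. Both are markers of astrocytic tumours. KRT5, a basal epithelial keratin, also had 20003 and 21498 reads and CDH1, the epithelial cadherin, 3176 and 4701 reads in the controls. In bulk RNA fewer cells of a type and less RNA per cell cannot be told apart. The libraries were scaled relative to each other, so a change shared by all PABP-bound RNA would not be seen.

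Of 20626 genes in the table, 14866 had enough reads to be tested. Of these 4130 were lower (27.8%) and 4234 were higher (28.5%) in the miR-137 libraries, and the median log2 fold change over all tested genes was 0.00. The study's own, stricter rule sets every miR-137 library against every control library (4 pairs) by Fisher's exact test, and asks all of them for an odds ratio past 2 with the corrected p below 0.001. Applied to all 20626 genes it called 702 lower (3.4%) and 997 higher (4.83%). These shares are the background against which the counts of each gene group are set below. The falls and rises were unlike in size. No fall went below -4.86 on the log2 scale, while rises reached beyond 10.

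**Figure D1:**
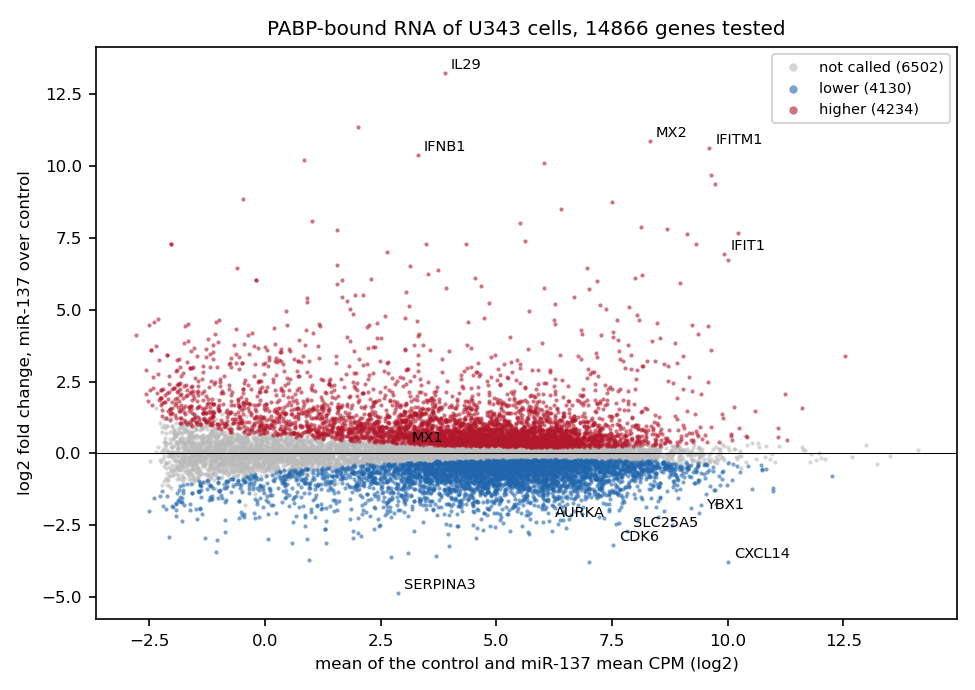
Each point is 1 of the 14866 tested genes, placed by its mean level in both groups (log2 of CPM, horizontal) and its log2 fold change of miR-137 over control (vertical), with the 4130 lower genes in blue and the 4234 higher genes in red. The rises extend above 10 (MX2, IFITM1, IFNB1, IL29) and the falls end at -4.86 (SERPINA3), while MX1 lies near 0.

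SERPINA3, the acute phase protease inhibitor alpha-1-antichymotrypsin (chr14:94148467-94160143 on hg18), showed the deepest fall. It had 524 and 685 reads in the control libraries and 18 and 20 in the miR-137 libraries, a log2 fold change of -4.86 ± 0.26 (edgeR adjusted p = 7.5e-06), which is 29.1-fold lower. CXCL14, a chemokine made constitutively by epithelia, was far more abundant, with 72984 and 89795 reads against 4133 and 6782 (-3.78 ± 0.27). For both genes every miR-137 library lay below every control library. The rule that chose these genes required this, so it is no separate evidence of their fall. NT5DC2, a haloacid dehalogenase family protein, went from 9425 and 10818 reads to 568 and 792 (-3.77 ± 0.19), although its annotated span overlaps STAB1 and the counting is not stated to use strand. MITF, the helix-loop-helix factor of melanocytes, went from 595 and 455 to 32 and 46 (-3.61 ± 0.20). MITF is among the targets reported for miR-137 before this study.

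CDK6, the kinase that with D-type cyclins phosphorylates the retinoblastoma protein in G1 (chr7:92072173-92303877, minus strand, hg18), was the most heavily read of the other genes among the 12 deepest falls. It had 15928 and 12663 reads in the controls and 1530 and 1302 with miR-137. The log2 fold change was -3.20 ± 0.12 (edgeR adjusted p = 1.7e-06), or 9.17-fold lower. Among the others were MGP, an inhibitor of calcification in the matrix (-3.56 ± 0.12), CD83, a surface protein of mature dendritic cells (-3.47 ± 0.15), OGDHL, a relative of the oxoglutarate dehydrogenase subunit (-3.22 ± 0.12), the sialyltransferase ST3GAL6 (-3.11 ± 0.38) and 2 replication-dependent histone genes, HIST1H4L (-3.72 ± 0.28) and HIST1H2BM (-3.11 ± 0.20).

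**Figure D2:**
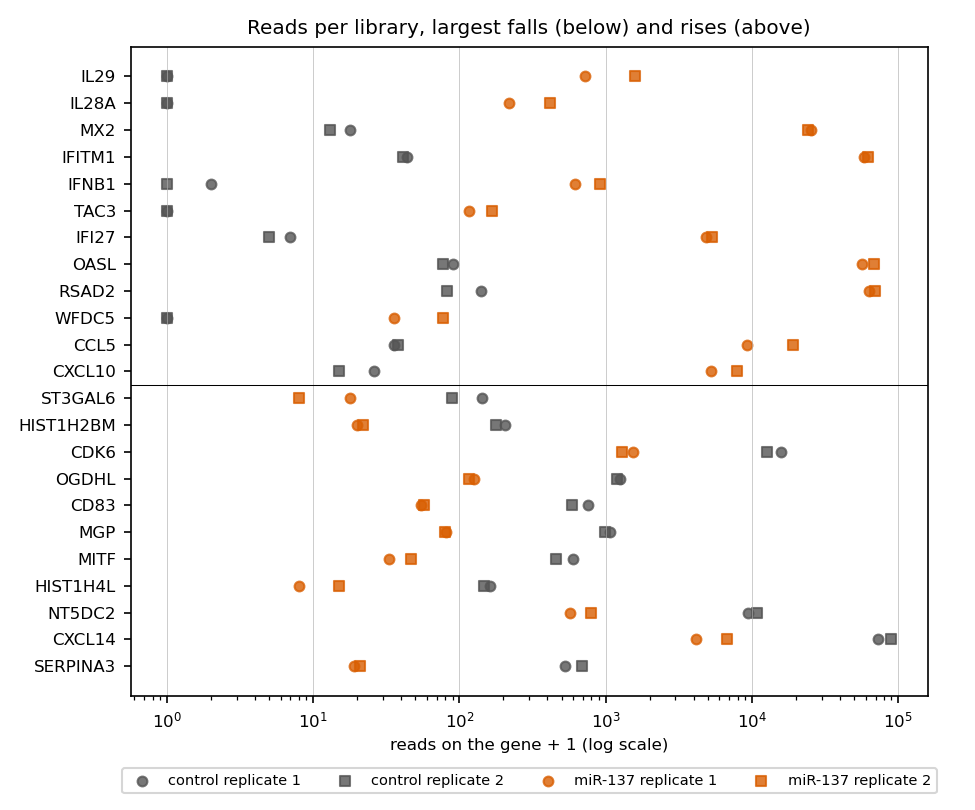
Reads on each gene plus 1 (log scale) in the 4 U343 RIPSeq libraries for 11 of the 12 genes with the deepest falls (below) and the 12 with the largest rises (above), grey for control and orange for miR-137, circles for replicate 1 and squares for replicate 2. For every gene shown the orange and grey points are apart, as the rule that chose these genes required. CXCL14 sits at 72984 and 89795 reads in the controls and at 4133 and 6782 with miR-137, and IFITM1 at 43 and 40 against 58475 and 62371.

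Most of the genes that the study singled out as targets or followed up fell in the PABP-bound RNA. Of 26 tested, 20 were lower, 3 were higher and 3 were not called, with a median of -1.39. The study chose them on these samples among others, so that count is no independent evidence of their direction. The deepest after CDK6 was SLC25A5, the ADP/ATP carrier of the inner mitochondrial membrane, with 17586 and 15915 reads in the controls against 2370 and 2343 (-2.70 ± 0.09). YBX1, a cold shock domain protein that binds mRNA, had 48276 and 44609 against 10333 and 9694 (-2.08 ± 0.11), the widest difference in reads of the list.

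Signalling genes of the same list moved less deeply. CDC42, a small GTPase of cell polarity, had 6359 and 5794 reads against 1606 and 1665 (-1.76 ± 0.08), and AKT2, a kinase downstream of PI3K, 4468 and 4618 against 1644 and 1757 (-1.29 ± 0.10). TGFB2, a transforming growth factor ligand, had 4998 and 5196 against 1624 and 1731 (-1.48 ± 0.10). DCLK1, a microtubule-associated kinase of migrating neurons (-1.87 ± 0.14), MTDH, a component linked to RISC (-1.30 ± 0.08), NFYC, a subunit of the CCAAT-binding factor (-1.23 ± 0.08), and MIB1, a ubiquitin ligase of Notch ligands (-0.78 ± 0.09), also fell. The annotated spans of AKT2, NFYC and MIB1 contain microRNA genes.

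Solute carriers were the most frequent family in that list. After SLC25A5 the deepest were SLC43A2, a transporter of large neutral amino acids (-2.40 ± 0.19), SLC45A3 (-1.94 ± 0.17), the monocarboxylate transporter relative SLC16A9 (-1.84 ± 0.13), the glutamine transporter SLC1A5 (-1.73 ± 0.09), the cationic amino acid transporter SLC7A2 (-1.62 ± 0.17) and SLC35A4 (-1.60 ± 0.09). The creatine transporter SLC6A8 fell by less (-0.79 ± 0.08). The bicarbonate transporter SLC4A7 (-0.51 ± 0.14) was called with all libraries and lost the call without control replicate 1 (-0.30, adjusted p = 0.0926) or miR-137 replicate 2 (-0.42, adjusted p = 0.083).

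In the other direction EDN1, the vasoconstrictor peptide endothelin, rose from 989 and 749 to 2283 and 1652 reads (1.32 ± 0.16). CD24, a sialoglycoprotein of the cell surface with near-identical copies in the genome, rose from 2297 and 2285 to 4164 and 3709 (0.91 ± 0.10). MSI1, a neural RNA-binding protein, was at 2023 and 2221 reads in the controls and 1967 and 1976 with miR-137 (0.02 ± 0.11, adjusted p = 0.888), a difference smaller than the spread between libraries. The netrin-G ligand LRRC4 (-0.20 ± 0.30) and the glutamate transporter SLC1A2 (-0.11 ± 0.22) were not called either. KIT, a receptor tyrosine kinase, had only 6 and 3 reads in the controls and 2 and 5 with miR-137 and was not tested. NEFL, the light neurofilament, was called higher on 3 and 4 against 12 and 12 reads (1.87 ± 0.46), a call lost without any 1 of 3 libraries (adjusted p from 0.0564 to 0.0862) and with DESeq2 (adjusted p = 0.133), and TCF3 (-0.41 ± 0.10) lost its call without control replicate 2 (-0.31, adjusted p = 0.069).

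The cell cycle genes fell together. Of 58 genes of mitosis and the kinetochore 56 were lower, 47 of them also by the pairwise rule, with a median of -1.41. CENPE, the kinetochore motor that moves chromosomes to the spindle equator, fell from 2339 and 1928 reads in the controls to 308 and 368 (-2.52 ± 0.12). AURKA, the kinase that matures centrosomes, fell from 5305 and 4809 to 871 and 927 (-2.36 ± 0.08), and SKA2, a subunit of the complex that holds kinetochores on microtubules, from 3970 and 3574 to 662 and 748 (-2.29 ± 0.09). SKA2 hosts 2 microRNA genes in its span. PLK1, the kinase of mitotic entry and exit, fell from 7066 and 7206 to 1624 and 1662 (-1.99 ± 0.09), CCNB2, a B-type cyclin, from 5976 and 5476 to 1372 and 1471 (-1.88 ± 0.08), and its partner CDK1 from 3558 and 3042 to 922 and 940 (-1.69 ± 0.08). For each of these genes both miR-137 libraries lay below both controls. The share of all genes for which this held is not given here, and 27.8% of all tested genes were called lower. PLK1, CCNB2 and CDK1 were named for their promoters after their values were seen.

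Many promoters of mitotic genes carry a cell cycle homology region (CHR), a short element bound by repressor complexes outside mitosis. The letters TTTGAA were searched on both strands of RefSeq promoters (GRCh38.p14, 250 bases before to 50 after the start). They were present in 29 of the 49 mitosis genes with a promoter in that table (59.2%), against 15.4% of all 27305 promoters, 1 of 42 DNA replication genes (2.38%) and 3 of 61 genes of oxidative phosphorylation (4.92%). A promoter was at hand for 84.5% of the 58 mitosis genes. Of the 11370 tested genes with a promoter (76.5% of all tested) 10.4% held these letters. The windows below show the element, in capitals, in 4 genes that fell. In the HMMR window a further match directly before it is left in lower case. A match in letters is a description and not a measured binding site.
PLK1 (chr16:23678848-23678877, plus strand): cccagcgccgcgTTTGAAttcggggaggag
CCNB2 (chr15:59105105-59105134, plus strand): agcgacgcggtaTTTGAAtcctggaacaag
HMMR (chr5:163460598-163460627, plus strand): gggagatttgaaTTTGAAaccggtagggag
CENPA (chr2:26786026-26786055, plus strand): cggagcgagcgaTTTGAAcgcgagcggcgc

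DNA replication genes fell less deeply than mitotic genes in the median. Of 48 tested, 43 were lower and 1 was higher, with a median of -0.83 and 8 lower by the pairwise rule. The deepest were GINS4 and CDC45, parts of the replicative helicase, and POLE2, a subunit of polymerase epsilon. GINS4 had 2143 and 2250 reads in the controls and 632 and 684 with miR-137 (-1.61 ± 0.11), CDC45 3512 and 3625 against 1022 and 1208 (-1.55 ± 0.11) and POLE2 392 and 366 against 106 and 137 (-1.51 ± 0.16). PCNA, the sliding clamp, went from 16069 and 14771 to 7628 and 8210 reads (-0.83 ± 0.09). The 1 gene called higher was ORC4L, an origin recognition subunit (0.29 ± 0.08), whose call was lost when any 1 of the 4 libraries was left out (0.28 to 0.30, adjusted p from 0.0585 to 0.0736).

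E2F factors bind promoters of S phase genes. The letters GGCGGGAA, a form of their site, were present on either strand in 10 of 42 promoters of DNA replication genes (23.8%, with a promoter at hand for 87.5% of the 48) against 3.18% of all 27305 promoters and 6 of 49 mitosis promoters (12.2%). Of the 11370 tested genes with a promoter (76.5% of all tested) 4.86% held it, and of 61 oxidative phosphorylation promoters 4 did (6.56%). Capitals mark the match in 3 genes that fell.
GINS2 (chr16:85688968-85688997, minus strand): gctctcgccgtGGCGGGAAaacggcggccg
CDT1 (chr16:88803754-88803783, plus strand): gcgggaaatttGGCGGGAAccgcgcccgcc
PCNA (chr20:5126664-5126693, minus strand): gcagcgtcaggGGCGGGAAaaggcgtgcgt

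Enzymes of nucleotide synthesis were lower in 22 of 28 and higher in 2, with a median of -0.60. MTHFD2, a mitochondrial folate enzyme, fell from 6328 and 5587 to 1250 and 1455 reads (-2.01 ± 0.10) and RRM1, the large subunit of ribonucleotide reductase, from 14773 and 13390 to 3969 and 4039 (-1.68 ± 0.09). ADSS, of AMP synthesis, rose (0.65 ± 0.09). Among DNA repair genes of the recombination pathways 27 of 35 were lower and 1 was higher. EXO1 (-1.57 ± 0.10) and FANCD2 (-1.46 ± 0.09) fell, with FANCF higher (1.43 ± 0.14). Condensin and cohesin genes were lower in 14 of 19, led by the cohesin acetyltransferase ESCO2 (-1.75 ± 0.12), NCAPG2 (-1.68 ± 0.08) and SMC2 (-1.68 ± 0.08).

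The controls of G1 were divided. Of 26 cyclins, CDKs, inhibitors and E2F genes 14 were lower and 5 were higher (median -0.29). Beside CDK6 the deepest were CCNE1, cyclin E1, from 1653 and 1483 to 449 and 447 reads (-1.67 ± 0.09), and E2F2 (-1.26 ± 0.17). CDKN1C, the inhibitor p57, rose from 1123 and 1017 to 2104 and 1859 reads (1.02 ± 0.09). Of 28 genes of p53 and its targets 5 were lower and 12 higher, with a median of 0.08. The p53 target kinase PLK3 (1.55 ± 0.12) and the BH3 protein BBC3 (1.17 ± 0.08) rose. RRM2B, the p53-induced subunit of ribonucleotide reductase, fell from 2333 and 1940 to 615 and 654 (-1.62 ± 0.09).

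Genes of mitochondrial respiration fell almost as a whole, each by a moderate amount. Of 75 nuclear genes of oxidative phosphorylation 70 were lower, with a median of -0.82, and 13 of them passed the pairwise rule. ATP5F1, a stalk subunit of the ATP synthase, fell from 19147 and 17113 to 6026 and 5042 reads (-1.58 ± 0.11), although WDR77 overlaps its span. UQCRH, the hinge protein of complex III, fell from 3205 and 2832 to 1046 and 902 (-1.50 ± 0.10) and UQCRC2, a core protein of the same complex, from 12928 and 11174 to 4388 and 4050 (-1.38 ± 0.09). By symbol, all 10 NDUFB genes and 11 of 14 NDUFA genes, subunits of complex I, and 15 of 20 COX genes, subunits or assembly factors of complex IV for the most part, were lower.

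The cytosolic ribosome moved the same way by less. Of 45 tested genes whose symbols begin with RPS 31 were lower and 1 was higher (median -0.46), and of 66 beginning with RPL 38 were lower and 3 higher (median -0.39). Ribosomal protein genes have many near-identical processed copies, and how such reads were divided is not given in the sources used here. Genes of the mitochondrial ribosome were lower in 28 of 48 (MRPL) and 14 of 27 (MRPS). Spliceosome and hnRNP genes were lower in 26 of 51 (median -0.25), among them SNRPE, a core Sm protein, from 2491 and 2320 to 468 and 481 reads (-2.21 ± 0.09), and PRPF8, the scaffold of the spliceosome core (-1.17 ± 0.11). Nuclear pore and transport receptor genes were lower in 20 of 41, led by the exportin CSE1L (-1.30 ± 0.08) and NUP210 (-1.23 ± 0.09).

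Genes of amino acid charging and supply moved in both directions. Aminoacyl-tRNA synthetases were lower in 9 of 19 and higher in 4. QARS (-0.93 ± 0.09), IARS (-0.91 ± 0.10) and EPRS (-0.71 ± 0.09) fell, whereas WARS, the tryptophanyl enzyme, rose from 7245 and 6260 to 39695 and 38282 reads (2.66 ± 0.11). WARS is known as an interferon-induced gene. Of 28 genes of the integrated stress response and amino acid supply 15 were lower and 4 higher. PHGDH, the entry to serine synthesis, fell from 7687 and 8087 to 1780 and 2135 (-1.88 ± 0.12), as did the amino acid transporter SLC43A1 (-1.78 ± 0.22), while the stress factor ATF3 rose from 868 and 647 to 4930 and 4914 (2.84 ± 0.11).

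Chaperones of the endoplasmic reticulum and the unfolded protein response were lower in 12 of 25, led by MANF (-1.07 ± 0.14), HSP90B1 (-1.02 ± 0.12) and SEL1L (-0.97 ± 0.09), with the sensor kinase ERN1 higher (1.09 ± 0.13). Cytosolic chaperones stood near the background, 8 of 31 lower and 6 higher, with the mitochondrial chaperonin HSPD1 (-0.79 ± 0.10), whose span overlaps that of HSPE1, among the falls and HSPA6 (0.96 ± 0.11) among the rises. Cholesterol synthesis was lower in 13 of 25, led by EBP (-1.19 ± 0.11), FDPS (-1.08 ± 0.11) and DHCR7 (-0.97 ± 0.10). Fatty acid synthesis was lower in 10 of 18, led by ACACA, the acetyl-CoA carboxylase (-1.07 ± 0.09). Glycolysis genes were mostly uncalled, with 5 of 23 lower, GPI deepest (-1.09 ± 0.15), and 4 higher, the lactate exporter SLC16A3 most (1.20 ± 0.21).

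**Figure D3:**
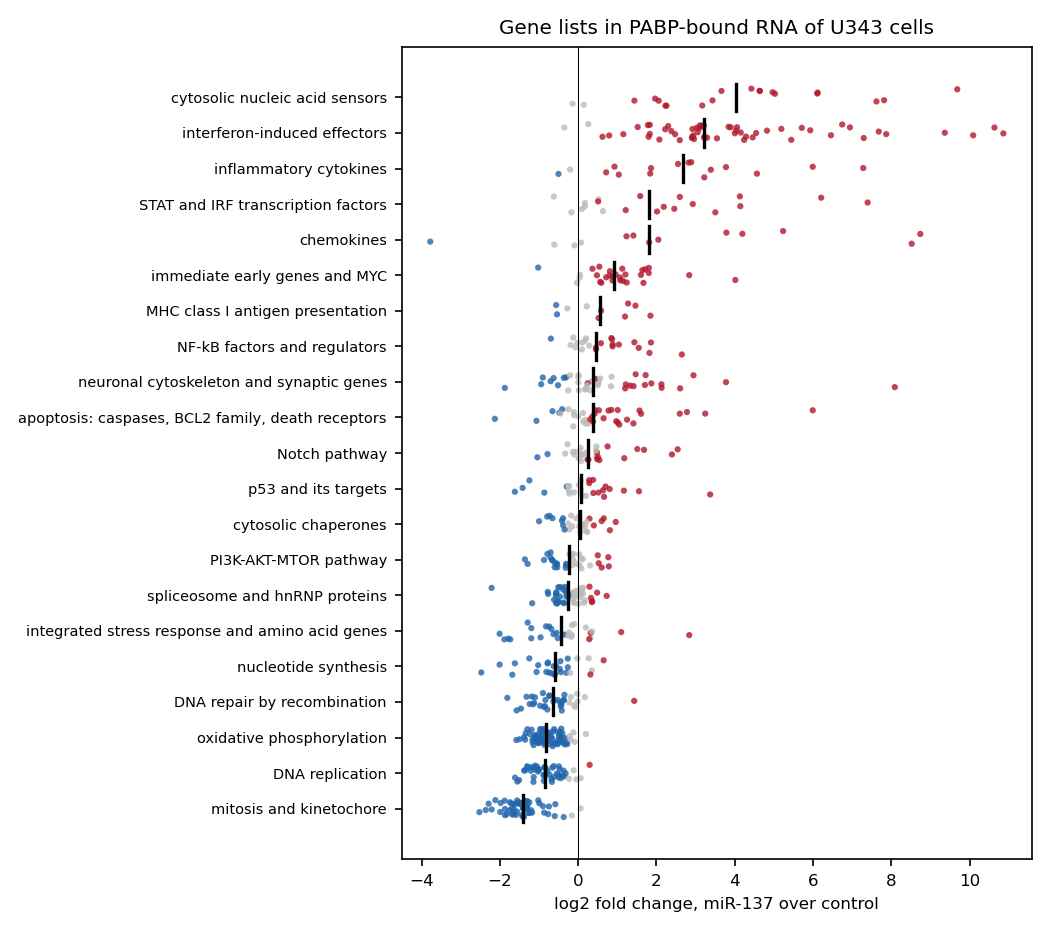
Log2 fold change of miR-137 over control (horizontal) for each tested member of 21 gene lists in U343 PABP-bound RNA, blue for lower, red for higher and grey for not called, with a black bar at the median of each list. The mitosis, DNA replication and oxidative phosphorylation lists lie left of 0 (medians -1.41, -0.83 and -0.82) and the sensors and effectors of the interferon response far to the right (4.05 and 3.22).

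The interferon genes themselves gave the largest rises. IL29, a type III interferon now named IFNL1, had no read in either control library and 721 and 1585 reads with miR-137, at least 843-fold higher against a floor of 3 reads over both controls. Its close relatives IL28A (no control read, 217 and 416 with miR-137, at least 231-fold higher) and IL28B (2 and 0 against 158 and 298, a ratio of 250.1 with an exact 95% interval from 68.8 to 2071) are nearly identical in sequence, so reads may have been divided between them. IFNB1, the type I interferon beta, had 1 and 0 reads in the controls against 618 and 919 (ratio 1686, interval 302 to 66624). Such intervals and floors cover counting error only. These 4 were the tested genes of 20 interferon genes in the table, and their median of 10.88 became 8.79 with the genes lacking control reads at their bounds.

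Receptors and their kinases moved in both directions. Of 22 genes of interferon receptors, JAK kinases and SOCS proteins 8 were higher and 6 lower, near the background. The largest rises were those of USP18, SOCS1 and JAK2. USP18, an inhibitor of the receptor, rose from 554 and 592 to 18375 and 17185 reads (5.08 ± 0.13), SOCS1 from 43 and 47 to 767 and 717 (4.17 ± 0.15) and JAK2 from 463 and 448 to 2664 and 2462 (2.62 ± 0.10). SOCS7 fell (-1.02 ± 0.11).

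Among the transcription factors of the pathway 13 of 20 STAT and IRF genes and their partners were higher, with a median of 1.80. IRF7, which amplifies interferon transcription, rose from 321 and 325 to 21842 and 21882 reads (6.21 ± 0.12) and BATF2 from 33 and 17 to 3907 and 3797 (7.40 ± 0.17). The groups lay far apart for both.

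Cytosolic sensors of foreign nucleic acid were higher in 18 of 20 tested, with a median of 4.05. OASL, a synthetase-like partner of RIG-I, rose from 89 and 76 to 56170 and 67912 reads (9.69 ± 0.19). OAS2 (196 and 118 against 32379 and 31913, 7.82 ± 0.20) and OAS1 (290 and 198 against 45744 and 41561, 7.62 ± 0.18), which make the oligoadenylate that activates RNase L, rose in both libraries.

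Interferon-induced effectors, the genes that act against viruses, were higher in 54 of 56, 52 of them also by the pairwise rule, with a median of 3.22. MX2, a GTPase that blocks retroviruses (chr21:41655820-41702739, hg18), rose from 17 and 12 to 25495 and 24176 reads (10.86 ± 0.17, adjusted p = 7.8e-08), 1863-fold. IFITM1, a membrane protein that hinders viral entry, rose from 43 and 40 to 58475 and 62371 (10.64 ± 0.17), and IFI27 from 6 and 4 to 4874 and 5338 (10.09 ± 0.16). With so few control reads the SE of MX2 and of IFI27 understates even the counting error. By reads the most abundant effectors after miR-137 included ISG15, a ubiquitin-like modifier (553 and 447 against 93340 and 93283, 7.68 ± 0.16), and IFIT1, which binds RNA lacking the host cap modification (766 and 587 against 77153 and 74267, 6.94 ± 0.16). RSAD2, viperin, rose from 140 and 81 to 63546 and 69030 (9.37 ± 0.23).

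The 2 effectors not called were MX1 and LAMP3. MX1, the neighbour and paralog of MX2 (chr21:41714390-41753010, hg18), is one of the most widely used markers of an interferon response. It had 314 and 321 reads in the controls and 329 and 366 with miR-137, giving a log2 fold change of 0.26 ± 0.13 (edgeR adjusted p = 0.127), 1.2-fold. LAMP3 had 45 and 35 against 26 and 31 (-0.35 ± 0.25, adjusted p = 0.265). In total RNA of the same line MX1 was at 9.46 and 9.61 CPM in the control libraries and 4.56 and 10.1 in the miR-137 libraries. MX1, ISG15 and IFIT1 were named after their values were seen.

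Promoters of interferon-induced genes often carry an interferon-stimulated response element. The letters GAAANNGAAA, a part of it, were found on either strand in 25 of the 41 effector promoters at hand, which are only 73.2% of the 56 effectors, and in 3.65% of all 27305 promoters. Among the mitosis promoters 2 of 49 (4.08%) held it, and among the 11370 tested genes with a promoter (76.5% of all tested) 2.89% did. The windows show the match in capitals for genes among the largest rises. The windows of IL28A and IL28B were identical letter for letter.
IL28A (chr19:39268210-39268239, plus strand): tctccatcagTTTCTCTTTCcctccagctg
IL28B (chr19:39245407-39245436, minus strand): tctccatcagTTTCTCTTTCcctccagctg
IFITM1 (chr11:313990-314019, plus strand): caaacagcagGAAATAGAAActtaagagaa
IFI27 (chr14:94110631-94110660, plus strand): cggtttcctgGAAAATGAAAcctatctcat
ISG15 (chr1:1013380-1013409, plus strand): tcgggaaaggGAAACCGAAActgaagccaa
IFIT1 (chr10:89392510-89392539, plus strand): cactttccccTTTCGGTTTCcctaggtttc
CXCL10 (chr4:76023699-76023728, minus strand): tcatgttttgGAAAGTGAAAcctaattcac
In the IL28A, IL28B and IFIT1 windows the match reads on the opposite strand. The ISG15 window also holds a further match that overlaps the marked one and is partly in lower case. MX1 held 1 match in its promoter, and RSAD2, OAS1 and IFNB1 held none in this window.

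Chemokines were higher in 9 of 13 and lower in 1, with a median of 1.81. CCL5, which attracts T cells, rose from 35 and 37 to 9225 and 19015 reads (8.74 ± 0.44). CXCL10 (25 and 14 against 5211 and 7930, 8.52 ± 0.30) and CXCL11 (59 and 68 against 1921 and 2462, 5.24 ± 0.18), ligands of CXCR3 whose spans lie within that of ART3, rose too. The gene that fell was CXCL14, by -3.78. Inflammatory cytokines were higher in 14 of 16 with a median of 2.69, led by TNFSF13B, the B cell factor BAFF (9 and 3 against 917 and 822, 7.28 ± 0.25), TNFSF10, the death ligand TRAIL (5.99 ± 0.21), and IL11 (78 and 67 against 1898 and 1240, 4.57 ± 0.24).

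Genes of NF-kB signalling were higher in 13 of 23 and lower in 1. TRAF1 (2.65 ± 0.27), the kinase IKBKE (1.86 ± 0.10) and the feedback inhibitor TNFAIP3 (1.82 ± 0.18) rose, and TRAF3 fell (-0.70 ± 0.11). Of 10 tested genes of MHC class I presentation 6 were higher, among them the light chain B2M, from 37692 and 32348 to 80918 and 95241 reads (1.47 ± 0.14), the immunoproteasome subunit PSMB10 (1.85 ± 0.08) and the proteasome activator PSME2 (1.28 ± 0.08). The other 13 genes of that list were not analysed here. Complement genes went both ways, 6 of 14 higher and 4 lower. C3 rose from 16 and 19 to 103 and 217 reads (3.31 ± 0.42) and SERPING1, the C1 inhibitor, from 1 and 1 to 62 and 72 (ratio 73.5, interval 19.9 to 613), while C5 fell from 752 and 770 to 218 and 222 (-1.66 ± 0.12).

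Markers of immune cells, which also respond to interferon, were looked at beside these rises. The 10 immune lineage markers in the table summed to 131 and 120 reads in the control libraries and to 96 and 105 with miR-137, or 2.46 to 2.95 CPM. PTPRC, the pan-leukocyte marker, had 6 and 3 reads in the controls and 2 and 2 with miR-137, and the T cell marker CD3E had at most 2 reads in any library. The 18 astrocytic and glioma markers summed to between 631881 and 808207 reads in every library. GFAP and VIM made up most of that sum in the controls, and the members moved both ways. Of 16 tested, 6 were lower and 4 higher (37.5% and 25%, against 27.8% and 28.5% of all tested genes), from -1.77 to 2.68. GFAP was called lower with all libraries and lost that call without control replicate 2 (-0.49). Epithelial markers summed to 515.9 and 647 CPM in the controls and 476.7 and 424.9 with miR-137. The 7 endothelial markers summed to 66.9 and 59.1 CPM in the controls and 39.1 and 38 with miR-137, and the 7 mature neuron markers to 7.34 and 6.84 against 20.6 and 19.1. Among the latter only SYP, 1 of 3 tested, was called higher, and the median log2 fold change was 0.13. The summed rise was no larger than that of SYP alone, whose reads are given below. STMN2 had no read in any library. The part of such cells in the results was not tested.

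Immediate early genes rose as a group. Of 30 genes of this group and the MYC family 25 were higher and 1 was lower, with a median of 0.93. KLF4, a zinc finger factor of differentiation, rose from 30 and 23 to 323 and 462 reads (4.02 ± 0.25), ATF3 by 2.84, and CTGF, a matricellular protein, from 1962 and 1618 to 6316 and 5075 (1.81 ± 0.12). KLF2 was called lower (-1.02 ± 0.27) and lost the call without control replicate 2 (-0.71, adjusted p = 0.0912) or miR-137 replicate 1 (-0.81, adjusted p = 0.0758).

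Apoptosis genes were higher in 21 of 37 and lower in 5. Besides TNFSF10, CASP1, the inflammatory caspase, rose from 357 and 355 to 3198 and 2981 reads (3.25 ± 0.10) and the neuronal BH3 protein HRK from 38 and 47 to 268 and 268 (2.78 ± 0.19).

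Growth factor signalling showed no common direction. Receptor tyrosine kinases were higher in 11 of 40 and lower in 11, shares close to the background of all genes. EGFR, the receptor amplified in many glioblastomas, fell from 9475 and 9334 to 3096 and 3121 reads (-1.47 ± 0.09). PDGFRB rose from 246 and 316 to 1020 and 1485 (2.28 ± 0.22), and RET rose on few reads (16 and 13 against 59 and 57, 2.12 ± 0.25). In the PI3K-AKT-MTOR pathway 16 of 33 were lower and 5 higher, AKT2 and the translation inhibitor EIF4EBP2 (-1.36 ± 0.09) among the falls. In the RAS-ERK pathway 11 of 31 were higher, led by the feedback inhibitor SPRY4 (1.90 ± 0.20), the adaptor SHC1 (1.32 ± 0.10) and RRAS2 (1.25 ± 0.11), and 5 were lower, with the phosphatase DUSP4 deepest (-0.78 ± 0.08).

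In the TGF-beta and BMP pathway 13 of 42 genes were higher and 11 lower, shares close to the background of all genes. Among the rises were the secreted antagonists NOG, from 7 and 19 to 104 and 219 reads (3.75 ± 0.51), and FST, from 147 and 156 to 397 and 490 (1.68 ± 0.16). The receptor-activated SMAD9 fell from 347 and 337 to 84 and 87 (-1.87 ± 0.15). FST lost its call in a joint fit with the total RNA libraries (adjusted p = 0.0892). Wnt genes were higher in 16 of 39 and lower in 10. RNF43, which removes Frizzled receptors from the surface (3.41 ± 0.27), the antagonist DKK2 (2.63 ± 0.34) and the receptor FZD4 (1.75 ± 0.21) rose, and the coreceptor LRP6 fell (-1.09 ± 0.11). Notch genes were higher in 12 of 29 and lower in 2. LFNG, a glycosyltransferase of Notch, rose from 390 and 416 to 2309 and 1991 reads (2.54 ± 0.12), and the target HES4 (2.40 ± 0.11) and the ligand DLL1 (1.68 ± 0.23) rose, whereas RBPJ, the DNA-binding factor of the pathway, fell from 1120 and 1027 to 426 and 526 (-1.04 ± 0.12).

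Genes of cell shape and matrix were mixed. CNN1, a smooth muscle calponin, rose from 364 and 342 to 4845 and 4380 reads (3.84 ± 0.10), while its relative CNN2 fell from 14251 and 13436 to 4566 and 3573 (-1.63 ± 0.13). WIPF1, a partner of the WASP proteins (4.86 ± 0.28), and the small GTPases RAC2 (2.49 ± 0.43) and RND3 (2.34 ± 0.09) were higher. Collagen genes were higher in 10 of 33, close to the share of all genes, and lower in 6. COL1A1 rose from 234 and 185 to 1442 and 1112 (2.74 ± 0.16), and COL11A1, the most read gene of those named, fell from 42251 and 37572 to 10112 and 9148 (-1.92 ± 0.11). Integrin and laminin genes were divided, 12 of 29 higher and 10 lower, with ITGAV, the alpha subunit of the vitronectin receptor, falling from 7974 and 5913 to 1533 and 1286 (-2.16 ± 0.13) and FN1, fibronectin, rising from 45 and 36 to 132 and 386 (2.81 ± 0.50). PLAUR, the urokinase receptor, rose from 1536 and 1115 to 6924 and 5383 (2.36 ± 0.15).

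Neuronal cytoskeleton and synaptic genes were higher in 16 of 42 and lower in 8, with a median of 0.39. These are 38.1% and 19%, against 28.5% and 27.8% of all tested genes. STMN4, a tubulin-binding protein of neurons, had 1 and 0 reads in the controls and 218 and 95 with miR-137 (ratio 343.3, interval 61.2 to 13602). The adhesion molecule L1CAM rose from 62 and 46 to 718 and 634 (3.78 ± 0.16) and the synaptic vesicle protein SYP from 86 and 80 to 604 and 566 (2.95 ± 0.13). DCLK1 fell. Guidance genes were higher in 16 of 47 and lower in 10 (34% and 21.3%), not far from the shares of all genes. Among them PLXNC1 (2.41 ± 0.26), SEMA3B (1.98 ± 0.19) and PLXNA4 (1.87 ± 0.14) were higher and EFNA2 was lower (-1.80 ± 0.29). Of the glioma stem, proneural and mesenchymal genes 11 of 30 were higher and 5 lower (36.7% and 16.7%, against 28.5% and 27.8% of all tested genes). The cytokine LIF (2.82 ± 0.21) and the progenitor filament NES (1.37 ± 0.11) rose, and HMGA2 fell from 90 and 130 to 18 and 26 (-2.19 ± 0.32). TAC3, the neurokinin B precursor, was outside these lists and among the 12 largest rises, with no read in the controls and 115 and 166 with miR-137, at least 103-fold higher. WFDC5, a protease inhibitor, had no control read and 35 and 76 with miR-137, at least 40.6-fold higher.

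Genes reported earlier as miR-137 targets or linked to schizophrenia were lower in 14 of 23 and higher in 4, with a median of -0.65. Among them were CDK6, MITF and ESRRA, an orphan nuclear receptor of energy metabolism, which fell from 3951 and 3745 to 503 and 540 reads (-2.75 ± 0.09) and whose span meets that of TRMT112. PTGS2, the inducible cyclooxygenase, rose from 91 and 35 to 892 and 673 (3.78 ± 0.31). Polycomb and REST corepressor genes were lower in 11 of 30 and higher in 9 (36.7% and 30%), not far from the 27.8% and 28.5% of all tested genes. EZH2, the Polycomb methyltransferase, fell from 3167 and 3170 to 922 and 1206 (-1.44 ± 0.13) and KDM1A, the demethylase LSD1, from 5053 and 4704 to 1911 and 1995 (-1.19 ± 0.08). Primary cilium genes were lower in 21 of 46 and higher in 11, with TULP3 (-2.42 ± 0.09), RPGRIP1L (-1.40 ± 0.10) and IFT20 (-1.19 ± 0.11) falling and the ciliary motor KIF17 rising (2.78 ± 0.15).

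The genes of PABP itself and of its partners moved in both directions. PABPC1, the main cytoplasmic PABP, had 18529 and 15408 reads in the controls and 11561 and 11168 with miR-137 (-0.44 ± 0.10), a call lost without control replicate 1 (-0.39, adjusted p = 0.0631). Of 37 PABP genes, partners and deadenylases 13 were lower and 7 higher (35.1% and 18.9%, against 27.8% and 28.5% of all tested genes). PAIP2B, a repressor of PABP, fell on few reads (166 and 215 against 33 and 55, -1.99 ± 0.28), the initiation factor EIF4G2 fell from 59715 and 54244 to 14834 and 15681 (-1.77 ± 0.11), and the exonuclease XRN1 rose (1.75 ± 0.11). Argonaute and microRNA genes were lower in 7 of 17 and higher in 2. DICER1 fell from 2538 and 2409 to 977 and 1130 (-1.10 ± 0.10), EIF2C2, which encodes Argonaute 2, from 1084 and 1007 to 478 and 514 (-0.94 ± 0.10), and the helicase MOV10, also known as an interferon-induced gene, rose from 3945 and 3662 to 11463 and 11840 (1.75 ± 0.09).

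Smaller lists gave pairs of opposite moves. MT2A rose from 5523 and 4529 to 15275 and 14958 reads (1.73 ± 0.10) and its fellow metallothionein MT1X fell from 509 and 428 to 106 and 77 (-2.22 ± 0.17), though the metallothionein genes are close paralogs. Lysosomal genes were lower in 10 of 36, close to the share of all genes, and higher in 7. Among them the protease CTSS rose from 299 and 211 to 1418 and 1665 (2.73 ± 0.14) and CTSL2 fell from 704 and 425 to 144 and 101 (-2.06 ± 0.24). Of the coat protein and SNARE genes 18 of 43 were higher and 7 lower. NAPA (1.38 ± 0.11), STX1A (1.20 ± 0.10) and STX6 (1.03 ± 0.08) rose, and the COPII coat protein SEC23A fell from 6392 and 5927 to 2144 and 2038 (-1.43 ± 0.08).

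Grouping genes by the letters that begin their symbols gave 191 families of at least 10 tested genes. The lowest median, -1.44, was that of the 53 histone genes named HIST, of which 40 were lower and 8 higher. After NDUFB and COX came the CEP genes of centrosomes, with 14 of 20 lower (median -0.68), and then the MCM genes, most of them helicase subunits, with 10 of 11 lower (median -0.63). Kinesins (KIF) were split, 17 of 32 lower and 10 higher, from -2.33 to 2.78.

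The highest median, 1.37, was that of the alpha protocadherins, PCDHA, neuronal adhesion molecules, with all 13 higher. Their log2 fold changes spanned only 1.11 to 1.40, but these genes share their 3′ exons, so their counts are not separate measurements. PARP genes were higher in 8 of 13 and lower in 3, interleukin genes and receptors (IL) higher in 30 of 51, and TRIM genes higher in 23 of 48. Zinc finger genes named ZNF, most of them presumed repressors of transcription, formed the largest family. Of 472 tested 214 were higher and 27 lower (45.3% and 5.72%), with a median of 0.30, and ZBTB genes were higher in 15 of 36 (median 0.30). ZNF, ZBTB and TRIM were picked out after their values were seen.

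Before the PABP-bound changes are set beside total RNA, 1 library of U343 total RNA has to be named. The median log2 ratio to the controls of the 56 interferon effectors was 3.24 and 3.20 in the 2 miR-137 RIPSeq libraries, but -0.15 in miR137 replicate 1 and 3.21 in replicate 2 of U343 RNASeq. IFIT1 was at 13.5 and 13.6 CPM in the control RNASeq libraries and at 9.73 and 1809 with miR-137. The mitosis genes fell alike in all of these libraries (medians -1.47 and -1.34 in RIPSeq, -1.44 and -1.43 in RNASeq), and CDK6 went from 545 and 643 to 81.3 and 91.6 CPM in RNASeq. So the library labelled miR137 replicate 1 of RNASeq carried the fall of the cell cycle genes and not the interferon response, and a log2 fold change of an interferon gene in total RNA averages a library with the response and a library without it.

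**Figure D4:**
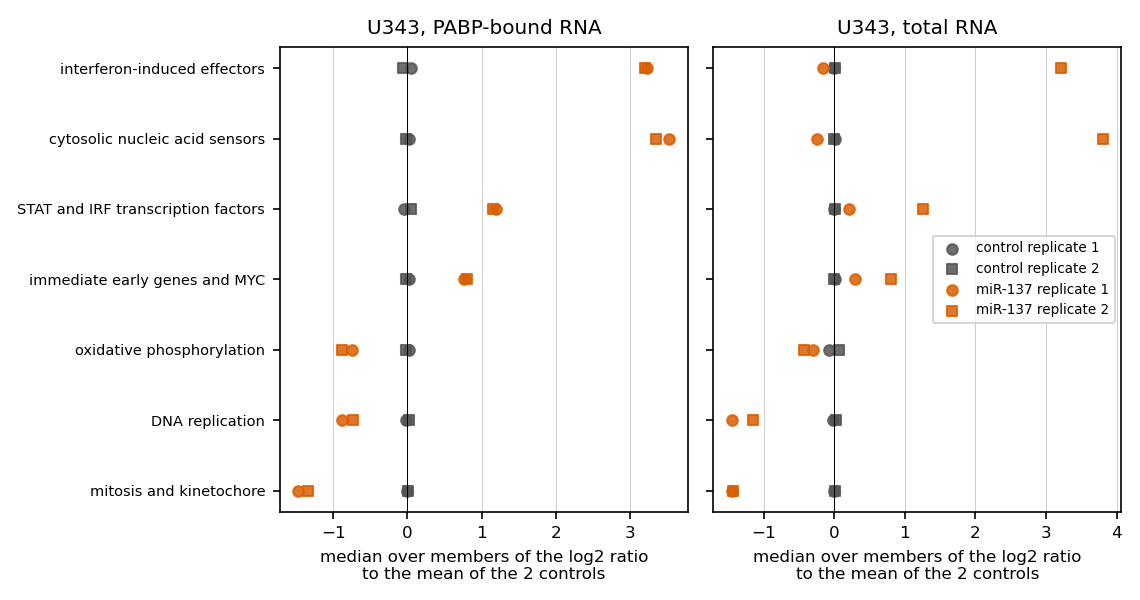
Median over the members of 7 gene lists of the log2 ratio to the mean of the 2 control libraries, for each library of U343 PABP-bound RNA (left) and total RNA (right), grey for control and orange for miR-137, circles for replicate 1 and squares for replicate 2. The miR-137 libraries lie together at left, whereas at right the interferon effectors are at -0.15 in replicate 1 and 3.21 in replicate 2 while the mitosis genes are at -1.44 and -1.43.

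Across 14631 genes the log2 fold changes of PABP-bound and total RNA had a Pearson correlation of 0.86, which was 0.59 with RNASeq miR137 replicate 1 alone and 0.88 with replicate 2 alone. This is a description across genes, which are not independent replicates. Of 4115 genes called lower in PABP-bound RNA 90.1% were also below 0 in total RNA and 1623 were called lower there, where 11.7% of 15088 genes were. Of 4105 called higher 93.2% were above 0 in total RNA and 1076 were called higher, against 8.31% of all. For CDK6 the log2 fold change was -3.20 in PABP-bound and -2.78 in total RNA, for YBX1 -2.08 and -2.20, and for SERPINA3 -4.86 and -2.54.

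The difference between the assays was tested for each gene as an interaction term in the 8 U343 libraries. Of 15413 genes 1 passed, HIST2H2BE, which is 0.00649%, and it lay above. The count below was 0 with edgeR and 272 with DESeq2, which also gave 127 above. With edgeR 2712 of the 15413 genes had an unadjusted p under 0.05, 1489 of them below and 1223 above, the background for the groups that follow. Some groups held many genes with an unadjusted p under 0.05 on 1 side, though none of their genes passed after adjustment with edgeR. For oxidative phosphorylation these were 54 of 75 genes, all with the PABP-bound change below that in total RNA (median difference -0.45, medians -0.82 and -0.38). For RPS genes they were 20 of 45 below (median difference -0.37). For ZNF genes they were 140 of 472 above (median difference 0.31), and for DNA replication 27 of 48 above (0.42), its fall being deeper in total RNA. All 4 statements describe lists, and the part of the RNASeq library without the interferon response in them was not tested.

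Histone genes moved in 1 direction in total RNA and in both directions in PABP-bound RNA. Replication-dependent histone mRNAs end in a stem-loop in place of a poly(A) tail, and some histone genes are known to make a polyadenylated form as well. All 53 histone genes were below 0 in total RNA, while in PABP-bound RNA 40 were lower, 8 higher and 5 not called. The 8 that rose were HIST1H3E (2.38 ± 0.26), HIST2H2BE (1.92 ± 0.09), HIST3H2A (1.90 ± 0.15), HIST2H2AC (1.67 ± 0.09), HIST1H2BK (1.66 ± 0.10), HIST1H2AC (1.34 ± 0.10), HIST3H2BB (1.11 ± 0.30) and HIST1H2BD (0.74 ± 0.11). In total RNA the same 8 ran from -1.17 to -0.20, where 2 of them were called lower, against 24 of the 40 that fell in PABP-bound RNA. HIST3H2BB lost its call without control replicate 2 (0.75, adjusted p = 0.0963), without miR-137 replicate 2 (1.04, adjusted p = 0.0739) and with DESeq2 (adjusted p = 0.0644).

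HIST2H2BE (chr1:148122634-148124856, minus strand, hg18) showed the difference at high counts. It had 821 and 671 reads in the control and 2609 and 2536 in the miR-137 libraries of RIPSeq, which are 18.2 and 16.5 against 66.8 and 64.7 CPM. In total RNA it was at 220.5 and 304 CPM in the controls and 124 and 136 with miR-137. The groups did not overlap in either assay and moved in opposite directions, a difference of 2.93 ± 0.22 between the log2 fold changes (edgeR interaction, adjusted p = 0.0456). The call was close to the threshold. It was lost with at least 50 reads on average (adjusted p = 0.0519), with the replicate block (0.0633) and without any 1 of the 4 RIPSeq libraries (0.192 to 0.516), while without RNASeq miR137 replicate 1 it stayed (0.00818).

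Other histone genes with many reads fell in both assays. HIST1H1B, a linker histone, had 5781 and 5842 reads in the RIPSeq controls and 913 and 1039 with miR-137 (-2.44 ± 0.10), and -2.00 in total RNA. HIST1H1E went from 12974 and 11780 to 4100 and 5285 (-1.27 ± 0.13) and HIST1H1C from 5251 and 4554 to 3000 and 3185 (-0.53 ± 0.08). For the other 7 genes that rose the adjusted p of the interaction ran from 0.0749 to 0.196. Histone genes are near-identical copies of one another, HIST1H2BK overlaps HIST1H4I, and all genes of this and the preceding paragraph were named after their values were seen.

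**Figure D5:**
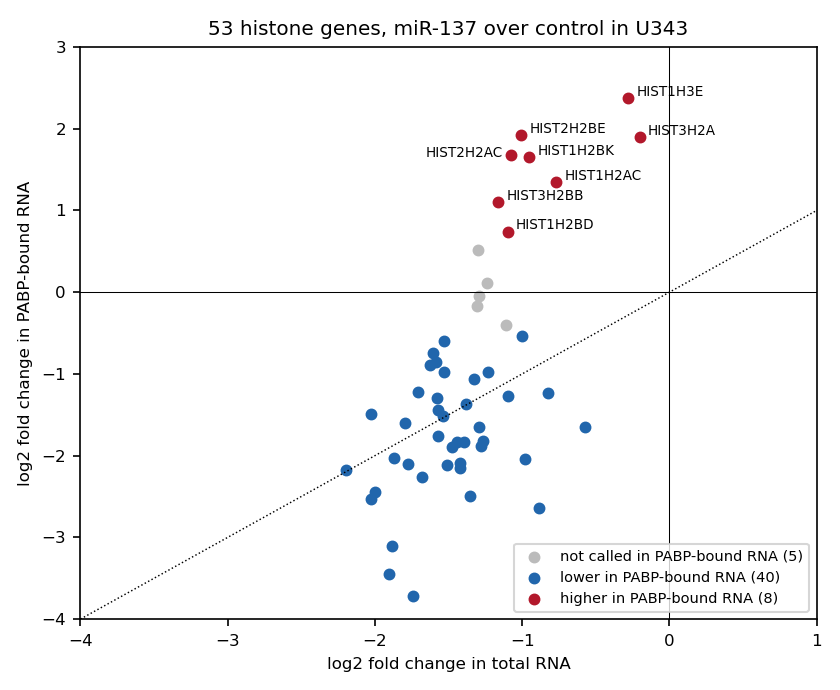
Each point is 1 of 53 histone genes of U343, with the log2 fold change of miR-137 over control in total RNA (horizontal) and in PABP-bound RNA (vertical). All lie left of 0 in total RNA, and the 8 in red, named, lie between 0.74 and 2.38 in PABP-bound RNA, above the dotted line of equal change.

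PABP-bound RNA of U251 cells was compared by the same test, with these limits. The lines were made into cDNA with different kits, so line and kit cannot be told apart. The U251 libraries were shallower (22359794 to 30731476 reads). The 2 U251 controls also differed more from each other than those of U343. They had 19413 and 18540 genes with a read, against 18969 and 18693 in U343. Their trimmed mean of M values factors were 1.04 and 0.909, against 1 and 0.996. In U251 alone edgeR called 37 genes lower and 133 higher of 14087. Of 15959 genes in the interaction 195 had a change in U343 below that in U251 (1.22%) and 329 above (2.06%). CDK6 was at -3.20 in U343 and at -3.53 in U251, where it was not called (adjusted p = 0.0798). Of the 56 interferon effectors 39 were called higher in U251 (median 4.36), and 13 had a change in U343 below that in U251 and 5 above. MX1, at 0.26 in U343, was at 6.70 in U251, a difference of -6.39 ± 0.25 (adjusted p = 0.00025). Among the histone genes 16 of 53 were further below in U343, HIST1H1B by -2.47 ± 0.30 (adjusted p = 0.0127), and among mitosis genes 7 of 58. Leaving out U251 control replicate 1 raised the counts to 2436 and 3068, and leaving out replicate 2 to 4634 and 4479. Leaving out any 1 of the other 6 libraries lowered both counts to 1 or 2.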

How the data were processed

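Read counts per gene were deposited by the authors, who used RMAP to align 36-cycle Illumina GAIIx reads against hg18 and took counts over 1 merged RefSeq transcript per gene. These are raw counts of reads, not of molecules, and were used unchanged. U343 cDNA was made with the TotalScript kit and tagged with Nextera. Whether counting used strand, and how reads with several matches were treated, is not given in the sources used here.

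Genes were tested with edgeR 4.0.16 (R 4.3.3), with trimmed mean of M values scaling, filterByExpr and the quasi-likelihood F test. The p-values were adjusted by Benjamini-Hochberg over all tested genes, with a threshold of 0.05. The standard error is the size of the log2 fold change divided by the root of its F statistic. The fit held the 4 U343 RIPSeq libraries. The interactions with assay and with cell line were fitted in the 8 U343 libraries and in the RIPSeq libraries of both lines. The pairwise rule was rebuilt from the study's methods. On simulated counts with 200 changed genes the fit was tested before use. Far more genes were called in these data, a setting that the simulation did not cover. Ratios for genes with few control reads have exact binomial intervals (95%), and genes without control reads a floor of 3 reads over both controls. Alternatives were DESeq2 1.42.0, upper-quartile scaling, other filters, a joint fit, a replicate block and leaving out each library.

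Genes were named by a rule: the 12 lowest and 12 highest called genes whose higher group averaged at least 50 reads and whose 4 pairs shared 1 direction, for each list the 3 largest changes in its main direction and the 1 largest in the other, and the genes that the study singled out. Other genes are marked where named. Of the 57 lists 40 entries matched no row. The groups and lists were chosen with earlier results of these data known. Promoters came from RefSeq GRCh38.p14, matched by symbol or synonym for 11370 of 14866 tested genes (76.5%), so shares are given only for lists with at least 80% matched, except where the share matched is stated. Results on some genes that the rule names are not reported here.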

Additional observations from a re-analysis of the deposited data

Results flagged for a closer look

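With edgeR and all libraries HIST2H2BE was the only gene of the 15413 in the U343 assay comparison that passed, its change in PABP-bound RNA lying above that in total RNA by 2.93 on the log2 scale (edgeR interaction, adjusted p = 0.0456). That call was lost with the replicate block (adjusted p = 0.0633) and without any 1 RIPSeq library, and DESeq2 called 272 genes below and 127 above. Between the cell lines, 195 genes had a PABP-bound change in U343 below that in U251 and 329 above it by the edgeR interaction (adjusted p under 0.05). Of the genes named above, the following were among them, each given as the U343 log2 fold change minus that of U251. Line and kit cannot be told apart in these differences, and when any 1 of the 4 U343 or of the 2 U251 miR-137 libraries was left out at most 2 genes passed on each side.

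Of the 56 interferon effectors 13 had the lower change in U343 and 5 the higher. Among the genes named for this pathway the change was above that in U251, by 7.54 for IRF7, 2.29 for IFI27, 2.06 for MX2, 1.85 for USP18 and 1.30 for OASL. Others had a lower change in U343, with a difference of -6.39 for MX1, -2.49 for LAMP3, -2.26 for IFIT1, -2.10 for OAS1 and -2.00 for CASP1. IL11 differed by 4.31, TRAF1 by 3.31 and LIF by 3.62.

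Signalling and stress genes above U251 were NOG at 6.04, LFNG at 3.95, KLF4 at 3.53, ATF3 at 2.59, EDN1 at 2.49, FZD4 at 1.99, AKT2 at 1.69, TCF3 at 1.46, ERN1 at 1.45 and SHC1 at 1.24. Genes of the cytoskeleton and of neurons above U251 were L1CAM at 4.76, WIPF1 at 4.39, CNN1 at 3.27, NEFL at 3.10, MSI1 at 2.65, NES at 2.32, PLXNA4 at 2.26, KIF17 at 2.02 and VIM at 1.13. Below U251 were MITF at -3.46, SERPINA3 at -3.03, HIST1H1B at -2.47, SMAD9 at -2.37, HIST1H1E at -1.96, AURKA at -1.64, UQCRH at -1.58, CCNB2 at -1.56 and HIST1H1C at -1.50.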

How the results depend on the processing

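With 2 libraries per group the calls of lower and higher genes in PABP-bound RNA stayed within 1.5 times the main counts under every alternative tried. They ran from 3285 to 3609 lower and 3173 to 3632 higher when 1 library was left out, and were 3790 and 3667 with DESeq2. Same-numbered libraries share only a number in the labels. Across the tested genes the deviations of the replicate 1 libraries from their group means had r = 0.279 between control and miR-137. With 2 libraries per group the replicate 2 deviations mirror these, so this is 1 value. The replicate block gave 4787 lower and 4858 higher. The pairwise rule gave 1677 lower and 1760 higher with an odds ratio over 1.5, and 790 to 1015 and 1097 to 1289 with 1 library left out, where fewer pairs have to pass. For the assay interaction DESeq2 gave 272 below and 127 above, the filter at 50 reads and the block each gave 0 above, and leaving out 1 library gave 0 to 1483 below and 0 to 1630 above. The highest counts came without RNASeq miR137 replicate 2, and without its replicate 1 they were 12 and 18. For the cell line interaction DESeq2 gave 665 below and 1195 above, the block 44 and 75, and leaving out 1 library 1 to 4634 and 1 to 4479, the high values without either U251 control library and the low values of 1 or 2 without any of the other 6. Changes of direction were seen only for genes that were not called, MSI1 (-0.12 to 0.16 over the left-out libraries, lowest without control replicate 1), LRRC4 (-0.45 to 0.0055, highest without miR-137 replicate 1), SLC1A2 (-0.34 to 0.084, highest without miR-137 replicate 1) and CDH1 (-0.41 to 0.31, highest without control replicate 2, and 0.14 without miR-137 replicate 1). Their cause was not tested. Of 249 called genes chosen for naming, 237 kept the call under every alternative that kept all libraries and 235 under each left-out library. Genes with fewer than about 50 reads in the higher group limit what can be said at this depth.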
